A study of Mus musculus with 4 samples.

Results

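Linker histones, core histone variants and the histone chaperone nucleoplasmin were followed by long-read single-cell sequencing from the mouse oocyte to the blastocyst. The 10 genes were taken by symbol: the linker histones H1foo, H1f0, H1fx and Hist1h1c, the H2A variants H2afz, H2afv and H2afx, the H3.3 genes H3f3a and H3f3b, and the chaperone Npm2. All 10 of the 10 listed symbols were in the gene table, which holds 20171 genes. They had 156 of the 68012 isoforms in the isoform table.

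Nucleosomes wrap DNA around core histones, and linker histones bind where DNA enters and leaves the nucleosome. Most core histones are made from intronless genes during DNA replication and their mRNAs end in a stem-loop, whereas variants such as H2A.Z and H3.3 come from genes with introns and polyadenylated mRNAs and are deposited outside replication as well. The egg carries its own linker histone, encoded by H1foo, and stores chaperones such as nucleoplasmin, and the paternal genome is repackaged with maternal histones, H3.3 among them, after fertilization.

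Oocytes and embryos came from C57BL/6J females of 6 to 8 weeks, and embryos from matings with DBA/2NCrl males. The sample labels give the strain as DBA/2J x C57BL/6J. Cells were collected 20 hours (MII oocytes, from females that were not mated), 22 to 24 hours (zygotes), 30 to 32 hours (early 2-cell, E2C), 46 to 48 hours (late 2-cell, L2C), 54 to 56 hours (4-cell), 68 to 70 hours (8-cell), 78 to 80 hours (16-cell and 32-cell) and 88 to 90 hours (blastocyst) after hCG, the hormone that triggers ovulation. Mouse embryonic stem cells (mESC) were read beside them, and the labels name no other treatment and no altered allele. Column names tied 121 of the 161 cells to 43 oocytes, zygotes or embryos, which served as replicates. There were 10 oocytes and 9 zygotes. Of embryos there were 5 at E2C, 6 at L2C, 5 at 4-cell, 4 at 8-cell and 4 at 16-cell. The 22 32-cell, 13 blastocyst and 5 mESC cells name no embryo, so their cells are described by lowest, median and highest value and enter no test. The names leave unsaid if numbers recur between runs, and where embryos of a stage shared a collection the p-values measure only the spread between these samples.

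The unit is copies per 100,000 UMIs of a cell, where a UMI tags 1 cDNA molecule. Such a value is a share, so a lower level of one transcript and a higher level of all others cannot be told apart. A cell held 4985 to 389775 gene UMIs with a median of 38914, and oocytes held 166731 to 255836. Markers of other cells were at or near 0: the 5 cumulus and granulosa genes present summed to at most 6.20 copies per 100,000 in an oocyte, zygote or embryo up to 16-cell, the 4 sperm genes to 2.52 and the 5 fibroblast genes to 4.65. In single 32-cell, blastocyst and mESC cells the sums of these 3 lists, in the same order, reached 7.01, 4.89 and 16.4. Maternal markers were found after the 4-cell stage: the 8 genes Zp1, Zp2, Zp3, Gdf9, Bmp15, Mos, Oosp1 and Nlrp5 summed to 1740 to 2411 copies per 100,000 in oocytes and still to 73.5 to 220 in blastocyst cells. In mESC the same 8 genes summed to 54.6 to 112, with Zp1, Zp2, Bmp15 and Nlrp5 at 0. The cells were read in 3 sequencing runs. The digit that ends a cell barcode in the study's cell lists was taken as the run, matched by oocyte, zygote or embryo name. Other runs were forced by the number of cells per run in these lists, and the run is known for a part of the embryos only. This matters for H1foo, Npm2 and the H3.3 genes, for which values or differences are given by run.

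Stages were compared in 1 fit with limma on log2(copies per 100,000 + 1) over 11682 genes that reached 1 copy per 100,000 in 4 or more embryos, and a call needed a log2 difference beyond 1 in either direction together with p under 0.01 before adjustment. Adjusted p-values were corrected by Benjamini-Hochberg across every gene in the fit. Of the 10 members 8 passed this filter; H1fx, with 25 UMIs in all cells, and Hist1h1c, with 28, did not. From oocyte to zygote 0 of 8 members were called where 3.24% of all genes were; 4 of the 8 had an unadjusted p under 0.05, edgeR called 1 and DESeq2 called 0. From zygote to E2C 1 of 8 was called against 7.27% of all genes. From E2C to L2C 4 of 8 were called (2 higher, 2 lower) against 48.4% of all genes, so by limma the members' share was near that of all genes. The member median log2 change at this step was -0.42, against 0.03 over all genes. After TMM scaling, which moved the median of all genes to -0.15, 6 of 8 were called against 47.8% of all genes. With edgeR it was also 6 of 8 against 51.1%, and with DESeq2 6 of 8 against 42.8%. From L2C to 4-cell 2 of 8 were called against 6.69%. From 4-cell to 8-cell 1 of 8 was called against 15.0%. From 8-cell to 16-cell 0 of 8 were called by limma, edgeR or DESeq2 against 3.36% by limma, and 1 had an unadjusted p under 0.05. Between oocytes and 16-cell embryos 7 of 8 were called (4 higher, 3 lower) against 50.8%.

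**Figure D1:**
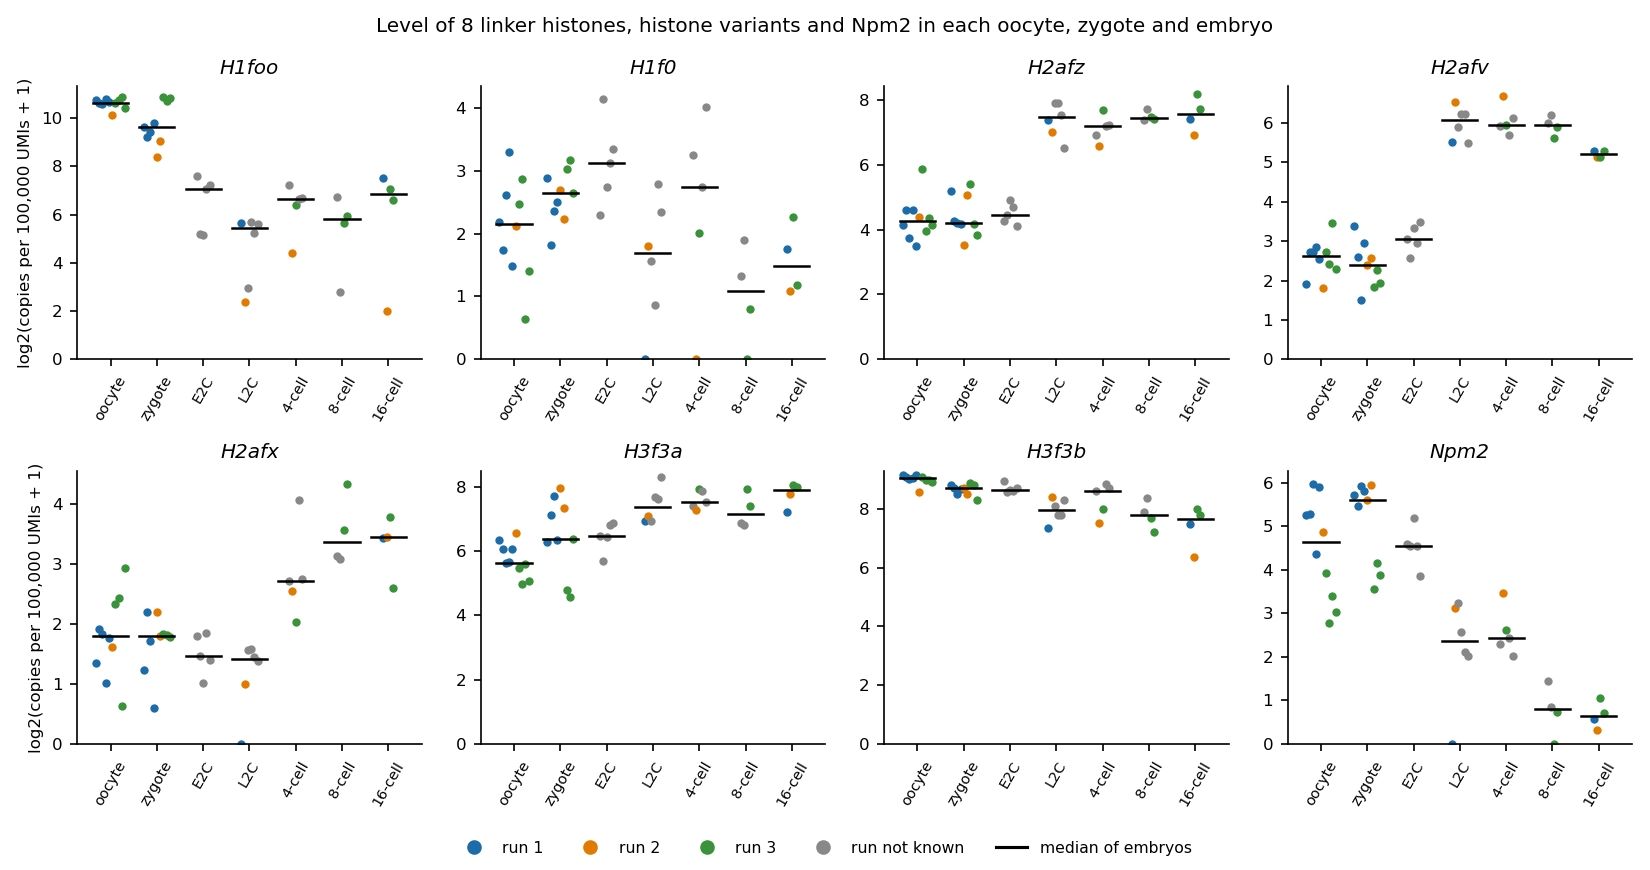
Level of 8 members in each of the 43 oocytes, zygotes and embryos, as log2(copies per 100,000 UMIs + 1), by stage; each point is 1 embryo coloured by sequencing run where it is known, and each line is the median of a stage. H1foo and Npm2 were highest in oocytes and zygotes, H2afz and H2afv stepped up between E2C and L2C, and run 2 embryos held the lowest H1foo values at L2C, 4-cell and 16-cell.

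H1foo (ENSMUSG00000042279.13, chr6:115944938-115950236, plus strand, 5 exons), the linker histone of the oocyte, had the highest mean level of the members in oocytes and zygotes, and H3f3b was above it in the mean from E2C on; coordinates are mm10 with GENCODE vM21 gene models throughout. In oocytes its level ran from 1140 to 1864 copies per 100,000 with a median of 1597 (n = 10). It made up 99.7% ± 0.17 (SD, n = 10) of the linker histone copies read there, and the other linker histones summed to 4.74 ± 2.86 copies per 100,000. Reads started from poly(A), so linker histone mRNAs that end at a stem-loop without a tail are outside this share. Zygotes had 331 to 1903 copies of H1foo with a median of 789 (n = 9), and the oocyte and zygote ranges overlapped.

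The zygotes divided by run. In run 1 the 4 zygotes had 789, 593.9, 692.4 and 887.8 copies of H1foo, all below the 5 oocytes of that run at 1526 to 1790. In run 2 the 2 zygotes had 331 and 529.1 copies against 1140 in the only oocyte. In run 3 the 3 zygotes had 1903, 1686 and 1816 copies, within or above the 4 oocytes at 1578, 1735, 1864 and 1375. The difference between zygote and oocyte on the log2 scale was thus -1.17 in run 1, -1.44 in run 2 and 0.15 in run 3.

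Over all runs together H1foo differed between oocyte and zygote by -0.97 ± 0.35 (log2, SE; adjusted p = 0.0519 with limma), which was not called. The difference between the run 3 and run 1 changes was 1.36 ± 0.15 on the log2 scale (limma interaction, adjusted p = 3.5e-08), and in that contrast, added after the data had been seen, 3.90% of 7522 genes were called. H1foo and H3f3a were the 2 of 8 members called in it, H3f3a at -1.02 ± 0.34 (limma, adjusted p = 0.13).

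From zygote to E2C H1foo fell by 3.24 ± 0.48 on the log2 scale (adjusted p = 1.3e-06 with limma). The 5 E2C embryos had 192.9, 35.66, 34.27, 134.8 and 148.1 copies, all below the lowest zygote. At L2C the 6 embryos had 50.08, 4.229, 6.71, 50.64, 37.26 and 48.08 copies. The E2C and L2C ranges overlapped, and the change of -2.12 ± 0.66 (adjusted p = 0.0050 with limma) lost its call without E2C embryo 1 (-1.79) or E2C embryo 4 (-1.85).

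The 4-cell embryos had 151.3, 20.06, 82.6, 99.83 and 103.9 copies of H1foo, higher than L2C by 2.29 ± 0.75 on the log2 scale, a call by the unadjusted p (limma, adjusted p = 0.077). This call was lost with DESeq2 (1.68), without the filter (2.15), without 4-cell embryo 4 (2.25) and without 4-cell embryo 5 (2.24). The summed maternal markers had a median of 79.2 (50.1 to 157) at L2C and of 111 (29.6 to 207) at 4-cell, and their part in the result was not tested. The 8-cell embryos had 105.9, 6.008, 49.06 and 60.97 copies.

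Late H1foo values went with the run. The 16-cell embryo of run 1 had 184.4 copies, the 1 of run 2 had 2.958, and the 2 of run 3 had 134.4 and 97.73. All 32-cell cells were in run 2 and had 0 to 19.4 copies with a median of 3.52. All blastocyst cells were in run 1 and had 84.3 to 231 copies with a median of 134, and all mESC cells were in run 3 and had 32.8 to 71.9 copies with a median of 43.03. Run and stage cannot be told apart for these 3 kinds of cells.

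As a percentage of the oocyte mean, H1foo stood at 11.6% in the 16-cell embryo of run 1, 0.186% in that of run 2, 7.28% in those of run 3, 0.318% in 32-cell cells, 8.74% in blastocyst cells and 3.21% in mESC. Oosp1, which encodes a protein secreted by oocytes, stood at 12.4%, 0.722%, 8.26%, 0.857%, 9.81% and 3.99% in the same groups. Gdf9, an oocyte growth factor, stood at 4.51%, 0.440%, 5.94%, 0.351%, 3.41% and 4.28%. H1foo, Oosp1 and Gdf9 were thus lowest in the 2 groups of run 2, and so were the maternal markers Mos and Zp3. Zp1, Bmp15 and Nlrp5 were not. They stood at 10.7%, 2.71% and 2.32% in 32-cell cells and at 0 in mESC. Zp2 was at 0 in all of these groups. Over the 8 maternal markers the median was 5.15% in run 1, 0.581% in run 2 and 4.18% in run 3 at 16-cell, 1.59% in 32-cell cells, 2.70% in blastocyst cells and 1.64% in mESC. The part of the sequencing run in these levels was not tested. Without 16-cell embryo 2 the change of H1foo from 8-cell to 16-cell moved from 0.91 ± 0.67 to 1.84 and was called, and likewise without the embryos known to be in run 2 (1.83).

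**Figure D2:**
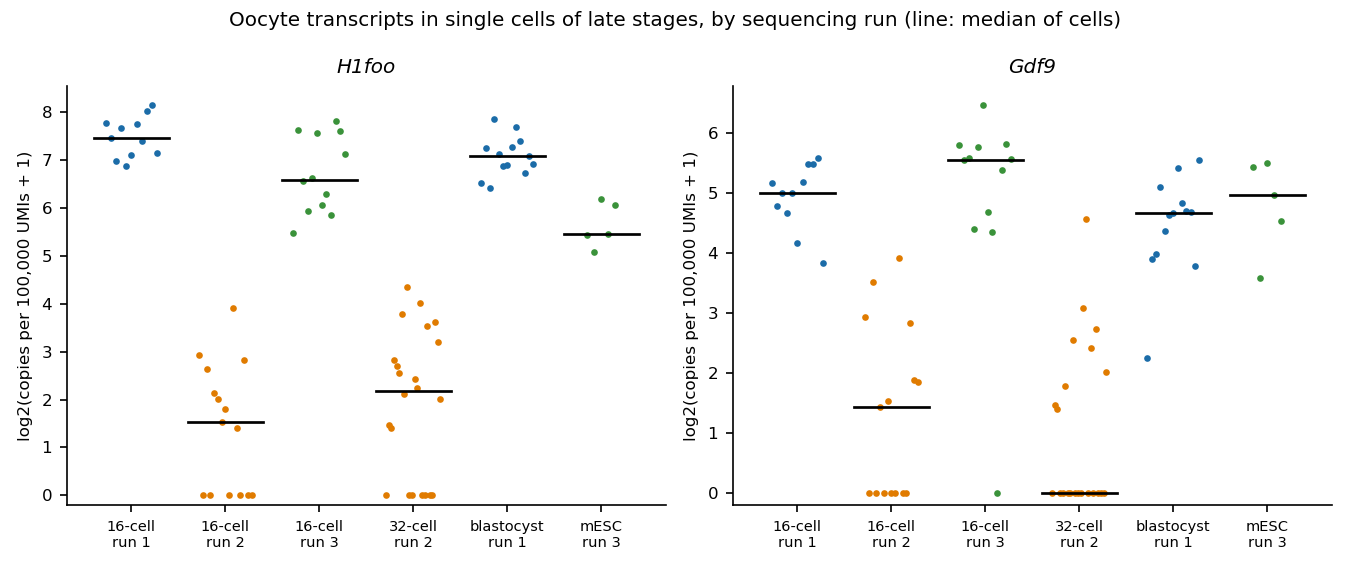
H1foo and Gdf9 in single cells of late stages by sequencing run, as log2(copies per 100,000 UMIs + 1); each point is 1 cell and each line the median of its group. The 16-cell and 32-cell cells of run 2 had median H1foo levels of 1.90 and 3.52 copies per 100,000, below every cell of the other 4 groups, where the lowest cell had 32.8.

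One isoform carried most of H1foo. PB.63789.12, with 5 exons, 1241 nt and the whole coding sequence, held 80.0% of H1foo isoform UMIs in oocytes and 92.2% in 16-cell embryos. The 16 isoforms that hold the stop codon but start inside the coding sequence held 17.4% in oocytes, 13.5% at L2C and 6.13% at 16-cell. The mean transcript length of H1foo, 1140 ± 20 nt in oocytes (SD, n = 10) and 1209 ± 8.6 nt at 16-cell (n = 4), differed by 0.09 ± 0.04 on the log2 scale (adjusted p = 0.145 with limma).

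H1f0 (ENSMUSG00000096210.2, chr15:79028450-79030504, plus strand, a single exon) encodes H1.0, a linker histone made independently of replication. Its levels were low: oocytes had 0.561 to 8.78 copies per 100,000 with a median of 3.43 and zygotes 2.52 to 8.04 with a median of 5.28. The E2C embryos had 3.933, 16.62, 5.708, 7.718 and 9.18 copies, and the L2C embryos 0 to 5.87 with a median of 2.23, so the ranges overlapped. The E2C to L2C difference of -1.25 ± 0.48 on the log2 scale (limma, adjusted p = 0.021) was not called, and it was called under 7 of 15 alternatives, among them edgeR (-1.84), DESeq2 (-1.87) and TMM scaling (-1.48).

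The 4-cell embryos had 8.473, 0, 3.035, 5.699 and 15.2 copies of H1f0 and the 8-cell embryos 1.51, 2.708, 0 and 0.7432. H1f0 fell by 1.78 ± 0.51 on the log2 scale at this step (limma, adjusted p = 0.010), its only call by limma with the settings given above. It was lost without 4-cell embryo 5, whose 15.2 copies were the highest (-1.26), and with a pseudocount of 5 (-0.97).

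The oocyte and later forms of H1f0 covered different ends of the gene. PB.27286.10 (chr15:79029474-79030498, 1025 nt) starts after the stop codon and holds 0% of the coding sequence, and it made up 62 of 74 H1f0 isoform UMIs (83.8%) in oocytes and 94 of 113 (83.2%) in zygotes. PB.27286.1 (chr15:79028447-79029522, 1076 nt) holds the whole coding sequence and ends 216 bases past the stop codon. It held 5 of 74 UMIs (6.76%) in oocytes, 18 of 64 (28.1%) at E2C, 10 of 15 (66.7%) at L2C, 16 of 22 (72.7%) at 16-cell and 25 of 26 (96.2%) in blastocyst cells. The isoform spanning the whole gene, PB.27286.2 (2044 nt), held 9.46% in oocytes. On these few UMIs the share of PB.27286.1 did not pass the test at E2C to L2C (0.41 ± 0.26 on the arcsine scale, adjusted p = 0.47 with limma). As levels, PB.27286.1 rose from zygote to E2C by 1.34 ± 0.40 on the log2 scale and PB.27286.10 fell from E2C to L2C by 1.97 ± 0.54 (limma, adjusted p = 0.030 and 0.0030). In 32-cell cells each of these forms held 9 of 18 UMIs.

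The other 2 linker histones were near the limit of detection. H1fx (chr6:87980421-87981637, minus strand, a single exon), which encodes H1.10, reached 1.945 copies per 100,000 in 1 E2C embryo and was at 0 in all 4-cell embryos. Hist1h1c (chr13:23738808-23740367, plus strand, a single exon), which encodes the replication-dependent H1.2, reached 1.653 copies in 1 E2C embryo and 1.378 in 1 16-cell embryo. Neither was detectable in enough embryos, at this depth and with reads started from poly(A), for a comparison of stages.

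H2afz (ENSMUSG00000037894.13, chr3:137864487-137866922, plus strand, 5 exons) and H2afv (ENSMUSG00000041126.16, chr11:6427229-6444443, minus strand, 5 exons) encode the 2 H2A.Z proteins, which mark promoters and are placed in nucleosomes by dedicated exchange complexes. Their coding sequences are of equal length, 387 bases, and differ at 81 of them, 70 at the last position of a codon, so 79.1% of bases are identical. The first 60 coding bases of each, from the GENCODE vM21 transcripts, show how the letters differ while a long read assigns each molecule to its gene. Capitals mark the bases that differ between both.
H2afz: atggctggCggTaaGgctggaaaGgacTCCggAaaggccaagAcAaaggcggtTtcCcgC
H2afv: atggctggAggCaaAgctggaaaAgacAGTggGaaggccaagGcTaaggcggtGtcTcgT

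Both H2A.Z genes rose at the late 2-cell stage. H2afz was at 16.23 to 29.32 copies per 100,000 in the 5 E2C embryos, namely 18.42, 20.85, 29.32, 25.02 and 16.23. The 6 L2C embryos had 166.9, 129.1, 238.9, 236.7, 183.3 and 90.12, all above every E2C embryo, and the rise was 2.80 ± 0.38 on the log2 scale (limma, adjusted p = 4.1e-09). Before this step oocytes had a median of 18.2 and zygotes of 17.4, and the largest value was 57.37 in oocyte 7.

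Later steps of H2afz were small. The 4-cell embryos had 119, 93.73, 205.7, 147 and 148.7 copies, the 8-cell embryos 165.4, 211, 177.4 and 170.9, and the 16-cell embryos 169.1, 119.2, 292.1 and 209.4. The ranges of these stages overlapped, and none of the 3 steps after L2C was called. Blastocyst cells had 119 to 378 copies with a median of 262, and mESC had 343 to 464 with a median of 427.

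H2afv had 7.296, 4.944, 9.166, 6.753 and 10.23 copies in E2C embryos. At L2C it had 44.52, 91.82, 58.61, 73.73, 73.83 and 44.3 copies, with no overlap, and rose by 2.98 ± 0.35 on the log2 scale (limma, adjusted p = 7.6e-11). Its 8-cell values of 63.66, 72.31, 48.61 and 59.11 lay above its 16-cell values of 38.21, 34.26, 34.37 and 38.26, a difference of -0.76 ± 0.35 that was not called (adjusted p = 0.39 with limma). The rises of H2afz and H2afv from E2C to L2C were called under all 15 alternatives run.

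The H2afv share of all H2A.Z copies was 21.4% ± 8.8 in oocytes (SD, n = 10), 27.96% ± 8.3 at L2C (n = 6) and 16.7% ± 5.0 at 16-cell (n = 4). In blastocyst cells it was 4.35 to 13.5% with a median of 8.48%. No length correction was applied to these shares, and the mean transcript of H2afz in oocytes was 989 nt against 797 nt for H2afv.

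No H2A.Z isoform share passed the test between E2C and L2C. PB.49627.4 (922 nt) held 67.8% of H2afz isoform UMIs in oocytes, 65.2% at E2C, 72.4% at L2C and 67.2% in mESC, and PB.49627.1 (1280 nt) held 20.6%, 18.5%, 22.9% and 29.4% there. The E2C to L2C rise was 2.77 ± 0.43 for the first and 2.77 ± 0.50 for the second on the log2 scale, and both were called (limma, adjusted p = 6.5e-07 and 1.1e-05). H2afz transcripts were shorter at E2C (972 ± 23 nt, SD, n = 5) than in zygotes (1014 ± 13 nt, n = 9), with a difference of -0.06 ± 0.02 on the log2 scale (limma, adjusted p = 0.030).

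PB.9932.16 (824 nt, the whole coding sequence) held 74.5% of H2afv isoform UMIs at E2C and 82.9% at L2C. PB.9932.18, with 4 exons and 70.5% of the coding sequence, held 12.6% in oocytes, 3.74% at 4-cell, 16.8% in blastocyst cells and 22.4% in mESC, the last from 11 of 49 UMIs.

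H2afx (ENSMUSG00000049932.3, chr9:44334694-44336077, plus strand, a single exon) encodes H2A.X, the variant phosphorylated around DNA breaks. Its mRNA can end after a stem-loop, like those of replication-dependent histones, or carry a poly(A) tail further on. It differed by -0.21 ± 0.43 on the log2 scale from E2C to L2C and was not called (limma, adjusted p = 0.68). At L2C the 6 embryos had 0, 1.004, 1.971, 1.998, 1.721 and 1.611 copies per 100,000. The 4-cell embryos had 5.608, 4.896, 3.094, 15.77 and 5.714 copies, all above L2C, and the rise of 1.73 ± 0.48 (log2; limma, adjusted p = 0.029) was called.

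This H2afx call was lost without 4-cell embryo 4, which held the 15.77 copies (1.25), and with a pseudocount of 5 (0.95). The 8-cell embryos had 7.799, 7.476, 10.82 and 19.25 copies and the 16-cell embryos 9.819, 9.955, 12.76 and 5.103, so these stages overlapped. Blastocyst cells had 9.57 to 39.0 copies with a median of 25.5. From oocyte to 16-cell H2afx rose by 1.62 ± 0.34 (limma, adjusted p = 3.5e-05), lost only with a pseudocount of 5 (0.94) among 14 alternatives.

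The short H2afx form ended just past the stem-loop. PB.75509.3 (571 nt) stops at base 44335261 of chromosome 9, 68 bases past the stop codon, and its last 30 bases are shown because they hold the histone stem-loop motif, a short inverted repeat with some positions left free, searched on the sense strand only, which is in capitals.
PB.75509.3: tccacaaaGGCCCTTTTAAGGGCCaccacc
This motif was found in the transcripts of 45 of 21877 protein-coding genes (0.206%) and in 2 of the 10 members, H2afx and Hist1h1c. It was in 41 of 63 other genes (65.1%) with symbols starting Hist1h to Hist4h, taken here as replication-dependent histones. PB.75509.3 made up 3 of 53 H2afx isoform UMIs in oocytes (5.66%), 15 of 58 in zygotes (25.9%), 5 of 15 at E2C (33.3%), 1 of 9 at L2C (11.1%), 1 of 43 at 4-cell (2.33%) and 2 of 115 at 16-cell (1.74%). The long form PB.75509.1 (1579 nt) held 75.5% in oocytes, 62.1% in zygotes and 90.7% at 4-cell. PB.75509.12 (687 nt), which starts after the stop codon, held 18.9% in oocytes and 28.9% in 32-cell cells. Reads started from poly(A), so molecules that end at the stem-loop without a tail are outside what was measured.

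H3f3a (ENSMUSG00000060743.12, chr1:180800832-180813943, minus strand, 4 exons) and H3f3b (ENSMUSG00000016559.14, chr11:116021912-116027962, minus strand, 4 exons) encode the same protein, H3.3. Their coding sequences of 411 bases differ at 95 bases, 81 of them at the last position of a codon, and 76.9% of bases are identical. The first 60 coding bases are shown because the protein cannot tell both genes apart and the mRNA can, with capitals on the bases that differ between both.
H3f3a: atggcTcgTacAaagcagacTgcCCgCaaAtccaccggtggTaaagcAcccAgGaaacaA
H3f3b: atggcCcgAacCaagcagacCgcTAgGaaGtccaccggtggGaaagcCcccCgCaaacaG
H3f3a and H2afz also have processed copies elsewhere in the genome, and reads assigned between a gene and such a copy were not separated further here.

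H3f3b was the main H3.3 gene of the oocyte, and H3f3a had gained on it by the 16-cell stage. Oocytes had 382.4 to 568.6 copies of H3f3b per 100,000 with a median of 525.9, and 30.7 to 93.7 copies of H3f3a with a median of 49.0. The H3f3a values parted by run, with 48.4 to 80.9 copies in the 5 oocytes of run 1. The 1 oocyte of run 2 had 93.7 and the 4 of run 3 had 30.7 to 47.6. The part of the run in the H3f3a shares that follow was not tested. H3f3a made up 9.87% ± 4.01 of H3.3 copies in oocytes (SD, n = 10), 21.4% ± 12.3 in zygotes (n = 9), 17.6% ± 4.4 at E2C (n = 5), 41.3% ± 9.2 at L2C (n = 6) and 55.8% ± 11.9 at 16-cell (n = 4). In 32-cell cells the H3f3a share was 38.1 to 58.0% with a median of 47.1%. In blastocyst cells it was lower, at 27.4 to 47.9% with a median of 34.1%, and in mESC 47.0 to 65.8% with a median of 58.5%. The 32-cell cells were all in run 2, blastocyst cells in run 1 and mESC in run 3, so run and stage cannot be told apart here. The sum of both genes was 569 ± 54 copies per 100,000 in oocytes and 406 ± 111 at 16-cell.

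H3f3a in zygotes ran from 22.9 to 249.5 copies with a median of 82.0. The difference from oocytes was 0.87 ± 0.24 on the log2 scale (limma, adjusted p = 0.0084), under the size needed for a call. It was 0.92 in run 1, 1.10 in run 2 and -0.03 in run 3, so it did not hold in run 3, where the zygotes had 26.94, 22.86 and 81.96 copies. With edgeR on recovered UMIs it was 1.04 and called.

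From E2C, with 87.96, 50.28, 86.22, 111.4 and 115.7 copies of H3f3a, to L2C, with 122.4, 136.5, 120.9, 203.8, 194.9 and 317.9, all L2C embryos lay above all E2C embryos. The difference of 1.02 ± 0.45 (adjusted p = 0.046 with limma) was not called, as its unadjusted p missed 0.01. Over the whole series of stages H3f3a rose by 1.79 ± 0.36 from oocyte to 16-cell (limma, adjusted p = 1.7e-05).

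H3f3b fell by 1.65 ± 0.20 between the same ends (limma, adjusted p = 6.3e-11). The 16-cell embryos had 176.6, 81.16, 253.9 and 220.9 copies, all below the lowest oocyte. Its steps were small: the zygote lay below the oocyte by -0.36 ± 0.13 (limma, adjusted p = 0.0495), at -0.43 in run 1 and -0.33 in run 3 with no overlap in either, and at 0.02 in run 2. E2C to L2C was -0.63 ± 0.25 (limma, adjusted p = 0.024), which passed the threshold with edgeR (-1.10), with DESeq2 (-1.08) and after TMM scaling (-1.02). The 4-cell to 8-cell difference of -0.76 ± 0.26 was not called and was called without 8-cell embryo 2 (-1.04).

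The ends of the H3.3 mRNAs differed between E2C and L2C embryos. The run is not known for any E2C embryo or for 4 of the L2C embryos, and the part of the run in these shares was not tested. Shares of H3f3b isoforms also differed between oocytes of different runs, as given below. At E2C to L2C 7 of the 25 member isoform shares tested were called at an adjusted p under 0.05, against 8.77% of 3363 shares over all genes, and all 7 belonged to H3f3b or H3f3a. On arcsine shares in limma, PB.14747.265 rose with an adjusted p of 1.9e-07, PB.14747.101 with 1.6e-06 and PB.4902.127 with 4.9e-05. The other 4 called were PB.4902.28, PB.14747.12 and PB.14747.149, which went down, and PB.4902.100, which went up. Shares of isoforms of the same gene depend on each other, so the 7 are not separate results.

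Among H3f3b isoforms the shortest was nearly absent before L2C. PB.14747.265 (627 nt, ending 54 bases past the stop codon) held 0.504% of H3f3b isoform UMIs in oocytes, 0.694% in zygotes, 1.41% at E2C and 16.4% at L2C. The L2C embryos had 11.5 to 19.0% and the E2C embryos 0.472 to 3.61%, with no overlap. PB.14747.12 (1764 nt, ending 1183 bases past the stop codon) went the other way, from 23.0% at E2C to 5.66% at L2C, with ranges of 19.4 to 27.2% and 3.17 to 9.89%.

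PB.14747.101 (1259 nt, ending 575 bases past the stop codon) moved from 2.50% to 20.8%, having held 13.0% in oocytes. PB.14747.149 (1065 nt, ending 370 bases past the stop codon) stayed the main form at 63.7% and 52.4%, and its call was lost on a logit scale. As levels, PB.14747.265 rose by 2.99 ± 0.46 and PB.14747.12 fell by 2.84 ± 0.41 on the log2 scale (limma, adjusted p = 4.1e-07 and 1.1e-07). In mESC, all read in run 3, PB.14747.12 held 34.6%, above its share in every stage of the embryo.

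For H3f3a the main form PB.4902.28 (1162 nt, ending 540 bases past the stop codon) held 58.3% in oocytes, 78.8% in zygotes and 70.3% at E2C, then 33.1% at L2C and 34.0% at 4-cell. PB.4902.127 (959 nt, 337 bases past the stop codon) rose from 11.9% to 37.7% and PB.4902.100 (1039 nt, 438 bases past) from 7.67% to 21.1% between E2C and L2C. The E2C range of PB.4902.28, 56.0 to 80.2%, did not overlap the L2C range of 25.0 to 36.3%. In mESC, all read in run 3, PB.4902.28 held 70.4%. All of these forms hold the whole coding sequence.

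The mean H3f3b transcript was 1251 ± 31 nt at E2C (SD, n = 5) and 1086 ± 39 nt at L2C (n = 6), a difference of -0.21 ± 0.04 on the log2 scale (limma, adjusted p = 1.3e-05). That of H3f3a was 1106 ± 22 nt and 1027 ± 27 nt, a difference of -0.10 ± 0.02 (limma, adjusted p = 0.00026). Both were called, as 2 of the 5 members with enough UMIs, against 17.1% of 1266 genes. The last 30 bases of the 4 H3f3b ends and the 3 H3f3a ends named here hold neither AATAAA nor ATTAAA, where 35.5% and 9.74% of 58793 annotated coding transcripts hold these letters in their last 30 bases. The named ends are those of collapsed isoforms, and the ends of single molecules were not examined.

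**Figure D3:**
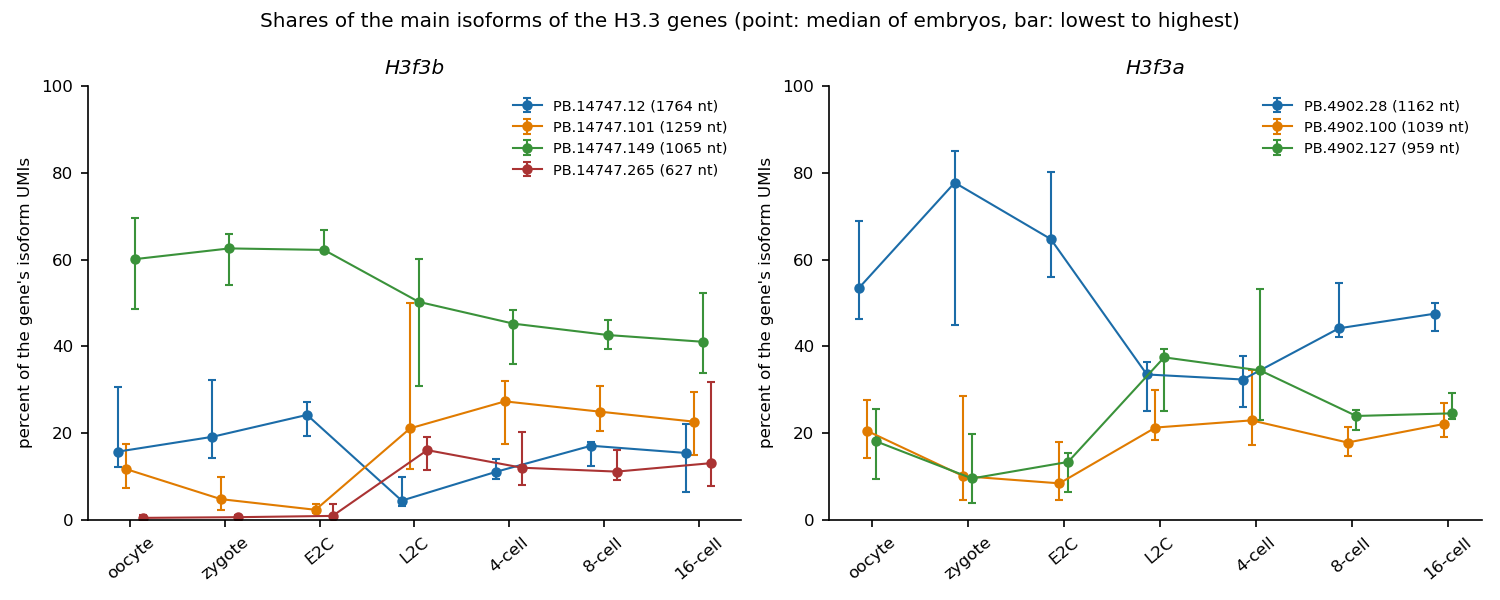
Share of the main isoforms in the isoform UMIs of H3f3b and H3f3a by stage, in percent; points are medians of embryos and bars run from the lowest to the highest embryo. Between E2C and L2C PB.14747.265 and PB.14747.101 went up as PB.14747.12 went down, and PB.4902.28 went from above 56.0% to below 36.3%.

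Over all member isoforms, 31 of 88 tested were called from E2C to L2C (13 higher, 18 lower) against 26.0% of 29409 isoforms. Of the 28 that rose or fell in genes other than Npm2, 15 fell and 13 rose, and H3f3b alone held 13 of them.

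Npm2 (ENSMUSG00000047911.6, chr14:70647302-70659244, minus strand, 9 exons) encodes nucleoplasmin, a maternal chaperone of H2A and H2B that acts on chromatin in the egg. Its level went with the run. Oocytes of run 1 had 37.13, 37.59, 61.74, 19.62 and 58.78 copies per 100,000, the 1 of run 2 had 27.91, and those of run 3 had 14.22, 5.846, 9.529 and 7.183, below every other oocyte. Zygotes of runs 1 and 2 had 42.91 to 60.75 copies and those of run 3 had 10.78, 16.93 and 13.8.

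Npm2 did not differ by a called change between oocyte and zygote (0.68 ± 0.30, adjusted p = 0.12 with limma), and the difference was 0.37 in run 1, 0.92 in run 2 and 0.59 in run 3. The E2C embryos had 23.11, 22.2, 35.46, 22.33 and 13.53 copies. The L2C embryos had 0, 7.718, 8.486, 4.965, 3.288 and 3.082, all below E2C, and Npm2 fell by 2.09 ± 0.56 (limma, adjusted p = 0.0011), called under all 15 alternatives. From the 8-cell stage on no embryo had more than 1.734 copies, and in blastocyst cells 2 UMIs were found in 13 cells.

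Most Npm2 molecules of oocytes in runs 1 to 3 lacked the end of the coding sequence. Isoforms without a stop codon held 82.4 to 96.2% of Npm2 isoform UMIs in the oocytes of run 1, 83.6% in that of run 2 and 38.5 to 84.0% in those of run 3. In the 4 oocytes of run 4 taken as intact they held 0 to 30.8%, on only 34 Npm2 UMIs in all. Of the 516 UMIs of runs 1 to 3, 394 came from run 1 and 61 from the 4 oocytes of run 3. PB.24476.54 (chr14:70648264-70653207, 6 exons, 793 nt) holds the start codon and 80.1% of the coding sequence and no stop codon. It made up 342 of 516 Npm2 isoform UMIs in oocytes (66.3%), 436 of 841 in zygotes (51.8%) and 10 of 170 at E2C (5.88%). PB.24476.3 (chr14:70647295-70653204, 9 exons, 1124 nt), with the whole coding sequence, held 7.36%, 17.2% and 47.6% in these stages. As levels, PB.24476.3 rose from oocyte to zygote by 1.29 ± 0.25 on the log2 scale and fell from E2C to L2C by 2.99 ± 0.47, and PB.24476.54 fell from zygote to E2C by 3.82 ± 0.52 (limma, adjusted p = 0.00039, 6.4e-07 and 2.9e-07). In run 3 the whole-coding copies of oocytes and zygotes overlapped.

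The sequence around the early end lies inside the Npm2 coding sequence. The last 30 bases of PB.24476.54 and the 30 that follow in the annotated transcript are shown, because 19 of the 30 bases after the end are A and the cDNA was primed on poly(A).
PB.24476.54 last bases: ggtggctccccagaagcagatgagcatagc
bases after the end: aaagaaaaagaaggtggaaaaagaagagga
Whether priming inside the transcript made this end was not tested.

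Between oocytes of runs 1 and 3 the ranges parted for isoforms without a stop codon and not for whole-coding ones. In oocytes of run 1 the isoforms without a stop codon had 22.4 to 83.7 copies per 100,000 isoform UMIs, in those of run 3 4.12 to 15.8, and in the 4 intact oocytes of run 4, a separate library, 0 to 1.42. Isoforms with the whole coding sequence had 2.84 to 5.65, 1.44 to 6.59 and 0.548 to 3.99 copies in the same groups, so these ranges overlapped. In zygotes whole-coding copies were 11.9 to 14.2 in run 1, 12.3 to 22.5 in run 2 and 2.73 to 4.43 in run 3.

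**Figure D4:**
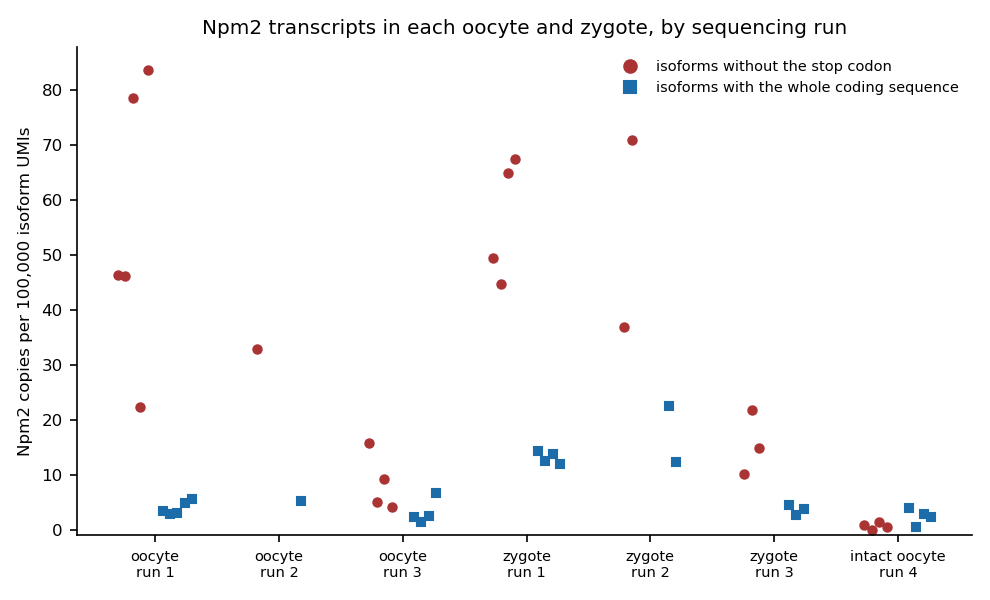
Npm2 copies per 100,000 isoform UMIs in each oocyte and zygote by sequencing run, for isoforms without the stop codon (red circles) and with the whole coding sequence (blue squares). Copies without the stop codon reached 83.7 in run 1 oocytes and at most 1.42 in the intact oocytes of run 4, while whole-coding copies stayed at or under 6.59 in all oocytes.

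Run 4 held 4 oocyte columns with no split in their label, taken here as intact oocytes. It also held 6 parts of oocytes split in 2 and 6 parts of oocytes split in 4. Each column had 129744 to 289774 isoform UMIs. The labels of the 4 do not say intact and carry a batch mark other than that of the run. The column names of run 4 do not tie parts to an oocyte here, so values are given without a test. H1foo had medians of 871, 785 and 862 copies per 100,000 isoform UMIs in the 3 kinds, H3f3b 677, 739 and 680, and H3f3a 51.2, 49.3 and 51.8. The oocyte levels of these genes given above are per 100,000 gene UMIs, so they are not on the scale of run 4. The ranges of the 3 kinds overlapped for each of these genes, and medians moved by less than the spread when all columns were thinned to 129744 UMIs.

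Isoforms of these oocytes differed from those of the first 3 runs. PB.14747.4 (1997 nt) and PB.14747.10 (1858 nt) held 12.6% and 12.3% of H3f3b isoform UMIs in intact oocytes of run 4, against 0.164% and 0.0219% in oocytes of runs 1 to 3. The H1f0 form without coding sequence held 54.5% against 83.8%, and the full-gene form PB.27286.2 held 42.4% against 9.46%. H1foo PB.63789.12 held 48.6% against 80.0%. The main H3f3b form of the other runs, PB.14747.149, held a median of 5.65% in the intact oocytes of run 4 and of 60.1% in the 10 oocytes of runs 1 to 3. Run and oocyte collection cannot be told apart here.

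Among the other variants and factors, the lists were chosen with earlier results of these data known. Of 6 other core histone variants tested, 2 rose and 1 fell from E2C to L2C, where 48.4% of all genes were called, with a median log2 change of -0.24 against 0.03. H2afj, an H2A variant, rose by 4.13 ± 0.38 on the log2 scale from a mean of 1.36 to 38.5 copies per 100,000 (limma, adjusted p = 4.5e-14), and Cenpa, the centromeric H3, by 1.44 ± 0.28 from 20.9 to 59.2 (limma, adjusted p = 1.7e-05). The 63 genes outside the members with symbols starting Hist1h to Hist4h were taken as replication-dependent histones. Some of them also count among the other linker histones below. Only their molecules with a poly(A) tail were read. Of the 63 genes 17 passed the filter, and 4 were higher in zygotes than in oocytes against 3.24% of all genes called there. From E2C to L2C 8 fell against 48.4%, with a median log2 change of -1.01 against 0.03 over all genes. Slbp, which binds the stem-loop of their mRNAs, fell by 3.88 ± 0.28 on the log2 scale at that step, from 638 to 47.9 copies (limma, adjusted p = 4.8e-18), as 1 of 3 genes called (1 higher, 2 lower) among 13 of histone mRNA processing, whose median was -0.03. Lsm10, a subunit of the U7 particle that cuts histone mRNAs, rose by 2.33 ± 0.34 from oocyte to zygote (limma, adjusted p = 1.0e-06).

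Of 18 chaperones of H2A and H2B and H2A.Z exchange factors, 7 rose and 4 fell from E2C to L2C against 48.4% of all genes called, with a median log2 change of 0.55 against 0.03 over all genes. Set, a histone chaperone, rose by 4.07 ± 0.37 from 6.86 to 131 copies (limma, adjusted p = 3.2e-14), and Anp32e, which removes H2A.Z, by 2.42 ± 0.37 from 1.49 to 11.04 copies (limma, adjusted p = 1.1e-07). Vps72, the H2A.Z-binding subunit of its exchange complexes, fell by 2.49 ± 0.33 from 33.4 to 4.72 copies and Ep400 by 1.95 ± 0.32 from 20.8 to 4.88 copies (limma, adjusted p = 2.1e-09 and 6.4e-07). These last genes thus went opposite to H2afz and H2afv at this step.

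Of 15 chaperones of H3.3 and H3, 2 rose and 5 fell from E2C to L2C against 48.4% of all genes called, with a median log2 change of -0.14 against 0.03. From 4-cell to 8-cell 6 fell against 15.0% called, with a median of -0.54 against -0.16. Rbbp7, a shared subunit of chromatin complexes, fell by 3.50 ± 0.27 from 270 to 24.4 copies, and Asf1a, an H3-H4 chaperone, by 3.45 ± 0.37 from 67.9 to 6.58 copies (limma, adjusted p = 1.1e-16 and 4.2e-12). Ubn1, of the H3.3 deposition complex HIRA, fell by 2.89 ± 0.41 from 4-cell to 8-cell, from 15.7 to 0.368 copies (limma, adjusted p = 5.0e-07). Of 8 genes of the damage response around H2A.X 2 rose and 1 fell from E2C to L2C, again against 48.4%, with a median of -0.18. Atm, the kinase of double-strand breaks, rose by 2.36 ± 0.40 and Trp53bp1 fell by 2.18 ± 0.32 from E2C to L2C (limma, adjusted p = 1.1e-06 and 5.0e-08). The only other linker histone to pass the filter, of 5 present, was not called at any step.

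Over the 43 oocytes, zygotes and embryos, the level of H1foo went most closely with Gdf9 (Pearson r = 0.97) and with Plat, a plasminogen activator (r = 0.97). H2afz went with Ndufs8 (r = 0.95) and Bag1 (r = 0.95), and H2afv with Prps1 (r = 0.96) and Ube2l3 (r = 0.96). H3f3b went with Ccnb1, a mitotic cyclin (r = 0.86), and Med27 (r = 0.84), H3f3a with Atp6v0e (r = 0.84) and Dynlrb1 (r = 0.84), and H2afx with Ctsd and Eif5a (r = 0.79 for both). Npm2 went with Fbxw15 (r = 0.92) and Atg5 (r = 0.90), and H1f0, at low counts, with Setdb1 (r = 0.67) and Ticrr (r = 0.66). These values describe embryos that share stage, library and depth.

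Sister cells of an embryo could be set against counting error, as the variance among sisters over that expected from their UMIs. For H1foo this ratio was 0.373 at E2C, 1.58 at L2C and 3.50 at 16-cell. For H2afz it was 0.871 at E2C, when 193 UMIs were counted, and 8.14 at L2C, when 1004 were. H2afv stayed between 1.002 and 2.36 from E2C to 16-cell, and H3f3b between 3.15 and 5.92. The E2C and L2C ratios rest on 5 embryos each, and the ratio grows with the count for the same difference between sisters.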

How the data were processed

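Single mouse oocytes and blastomeres were read as full-length cDNA with a UMI per molecule. The authors called consensus reads with SMRT-Link, found barcodes and UMIs with scISA-Tools, aligned with minimap2 to mm10 (named in the submitters' processing notes), used gffcompare for gene assignment and cDNA_Cupcake to collapse isoforms, and kept the FSM, ISM, NIC and NNC classes of SQANTI3, removing isoforms seen in fewer than 5 cells. The deposited gene and isoform values are CPM divided by 10, that is copies per 100,000 UMIs. For cells whose columns name no sample of the series the deposited values are the same unit, recorded as a score. Dividing them by the step of each cell gave whole UMIs for 100% of values (tolerance 0.1 UMI), on which edgeR called 5964 genes from E2C to L2C. The deposited table of run 4 holds whole UMIs per isoform under columns that name no sample of the series, and it entered no comparison between stages.

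The mean over an embryo's cells was taken as its value and tested with limma 3.58.1 (trend, array weights, pseudocount 1) in R 4.3.3, with edgeR 4.0.16 (quasi-likelihood) and DESeq2 1.42.0 as alternatives. Isoform shares (arcsine square root) and mean transcript lengths were called at an adjusted p under 0.05. A length needed 5 isoform UMIs in an embryo, and shares and lengths needed 3 embryos in each stage. The code was tested on simulated data. Python 3.11.15, numpy 2.4.6, pandas 2.3.3, scipy 1.17.1 and matplotlib 3.10.9 made the summaries and figures.

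All 10 members are named; the 8 that passed the filter enter the tests, and values are given in the text for the steps described there. Isoforms are named where they hold 10% of a gene's isoform UMIs in a stage, list genes as up to 2 rises and 2 falls among called genes at 10 or more copies, and similar genes as the 2 with the highest r. The members and lists were chosen with earlier results of these data known. The checks by run (run 3 against run 1, and leaving out embryos known to be in run 2) were chosen after seeing the data. Runs of E2C embryos are not known. Cell barcodes were used only for the digit at their end, taken as the run, and their sequences were not analysed here. Transcript sequences are GENCODE vM21, as a genome sequence was not used here.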

Additional observations from a re-analysis of the deposited data

Results flagged for a closer look

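Values far from the rest of their group were tested in 80 groups of samples, of which 8 stood apart; chance gives about 1 in 20. In oocyte 7 H2afz had 57.37 copies per 100,000, where the other oocytes had 10.2 to 23.23. In oocyte 9 H2afv had 10.09 copies, where the others had 2.5 to 6.195. In oocyte 6 H3f3b had 382.4 copies, where the others had 474.7 to 568.6. In 4-cell embryo 4 H2afx had 15.77 copies, where the others had 3.094 to 5.714. Among the 4 oocytes of run 4 taken as intact, copies are per 100,000 isoform UMIs. H1f0 was at 2.7383 copies in 1 and 3.79 to 3.99 in the others, and H3f3b at 809.01 in 1 and 666 to 684 in the others. Among the 6 parts of oocytes split in 4, in the same unit, H2afv was at 6.7943 in 1 and 0.665 to 2.91 in the others. Npm2 was at 5.3233 in 1 and 1.57 to 2.96 in the others.

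H1foo was found in mESC cells, which entered no test, at a median of 43.03 copies per 100,000.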

How the results depend on the processing

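The count of members called was 0 from oocyte to zygote and 1 with edgeR. From L2C to 4-cell it was 2, and 3 with edgeR, which also called H1f0 (1.43), and 1 with DESeq2, with no filter or with a pseudocount of 5; leaving out 1 embryo gave 0 to 2, with 0 without 4-cell embryo 4 and 1 without 4-cell embryo 5. From 4-cell to 8-cell it was 1, and 2 without array weights or with a pseudocount of 0.5 and 0 with a pseudocount of 5; leaving out 1 embryo gave 0 (4-cell embryo 5) to 2 (8-cell embryo 2). From 8-cell to 16-cell it was 0, and 1 without the embryos known to be in run 2; leaving out 1 embryo gave 0 to 1 (16-cell embryo 2). Over all steps between adjacent stages 7 isoform shares were called, all of them from E2C to L2C. That total over all steps became 15 on a logit scale with 0.5 UMI added. The causes were not tested. These counts, those of isoforms, shares and lengths, and the thinned run 4 medians of H1foo, H3f3b and H3f3a were tallied under all alternatives. Of them 128 stayed the same, 7 were higher and 7 lower. A count stayed the same within 1.5 times, and a median when it moved by less than the SD of its columns. Of the values of single genes and isoforms 1170 stayed called or stayed uncalled, with 17 gaining and 54 losing a call. A change of sign was looked for only where the main result was called, and 0 of these reversed. Uncalled values could change sign, as H3f3a did from zygote to E2C (-0.17, with -0.61 to 0.27 under the alternatives). With TMM scaling the share of all called genes that were higher moved from 62.2% to 35.6% from zygote to E2C (42.4% with edgeR, 33.3% with DESeq2) and from 29.8% to 52.1% from 4-cell to 8-cell (50.5% and 58.4%), and from 8-cell to 16-cell it moved from 56.5% to 71.8% with edgeR and 73.3% with DESeq2. The median log2 change of all genes moved under TMM from 0.11 to 0 from zygote to E2C and from -0.16 to 0 from 4-cell to 8-cell. With the sequencing run as a block, oocyte to zygote gave -0.72 for H1foo, 0.56 for H3f3a, -0.31 for H3f3b and 0.50 for Npm2 (limma, adjusted p = 0.00017, 0.036, 0.0095 and 0.033), all under the size for a call. No paired analysis was possible because embryo numbers in the column names do not tie an embryo of one stage to one of another. Members with few UMIs (H1f0, H1fx, Hist1h1c, H2afx) are limited by depth. Hist1h1c and H2afx, which hold the stem-loop motif, are also limited to molecules with a poly(A) tail.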
